A study of Mus musculus with 2 samples.

Results

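Long intergenic noncoding RNAs (lincRNAs) are transcripts annotated largely outside protein-coding genes and not translated into a known protein. Described here are 297 expressed lincRNA genes of the aged mouse hippocampus, of 55536 annotated genes in the tables. They were selected on measured values: a gene had at least 1 transcript of the annotated type lincRNA, none of the type protein_coding, and a level of at least 1 TPM (relative transcript abundance, corrected for length and depth) in both libraries. Of 6053 lincRNA genes, 304 met the minimum. Meg3, Gas5, Neat1, Malat1, Mirg, Rian and Miat were then set aside by name, which left 297.

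Total RNA had been sequenced from hippocampal tissue of male B6CASTF1/J mice, the hybrid offspring of C57BL/6J and CAST/EiJ, aged 18 to 20 months. There is 1 group of 2 libraries, labelled as biological replicates under 1 donor record, and whether they came from separate animals is not given. Each library started from 300 ng of RNA, and the labels name a spike-in profile meant for stranded, ribosomal RNA-depleted libraries. The group has no control or second condition, so every value below is a description, no test was possible and no p-value is given. With 2 libraries, both values are printed in place of an SD, replicate 1 first, and any spread between them may be technical.

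Members of this class act in several known ways. Some are long precursors whose small RNAs, microRNAs or small nucleolar RNAs, are cut from an exon or an intron. Others bind proteins or microRNAs through repeated short sites, and others start back to back with a protein-coding gene and may affect it in cis. In brain, the microRNAs miR-9 and miR-124 are classic neuronal regulators, and the Cdr1as circle, Cyrano and miR-7 are known to form a regulatory loop.

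Sites for miR-7 and for Pumilio proteins in 3 members with known binding partners are shown first. Cyrano (1700020I14Rik, Oip5os1 in RefSeq) is known for a site of extensive pairing to miR-7, and the Cdr1as locus (C230004F18Rik, Cdr1os in RefSeq) for many seed matches to it. The mature miR-7a sequence is from RefSeq (GRCm38.p6), with its seed, bases 2 to 8, in capitals. The 30-base windows are from the GENCODE M21 transcripts on mm10, with the match to that seed in capitals.
miR-7a-5p: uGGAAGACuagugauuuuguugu
Cyrano, first match, chr2:119599942-119599971, plus strand: gacttcaggttttttttttaatGTCTTCCa
Cyrano, second match, chr2:119602132-119602161, plus strand: taagaacaacaaaatcaccaatGTCTTCCa
C230004F18Rik, chrX:61183658-61183687, plus strand: caacgtcttccacaaaattcagGTCTTCCa
C230004F18Rik, chrX:61185483-61185512, plus strand: ccaagtcttcccgaaaatcaatGTCTTCCt

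The leading transcript of C230004F18Rik, its isoform with the highest TPM, carried 123 matches to the miR-7 seed in 3354 bases. The next highest count among the members was 2, which 8 of them reached, Cyrano included. Of the 122 distances between neighbouring matches in C230004F18Rik, 86 were exactly 18 bases, and the first and last match stood at bases 363 and 3188. The window below was its most common one and occurred 17 times.
C230004F18Rik, repeated window, 1 of its 17 places at chrX:61184529-61184558, plus strand: ccaagtcttcccgaaaatccaaGTCTTCCc
Pairing beyond the seed differed between the 2 loci. At the second match of Cyrano, 13 bases in a row before the seed match were complementary to miR-7a, up to its last base. At its first match the longest such run was 3 bases, and over the 123 matches of C230004F18Rik the longest was 7 and the median 5. Only the RNA strand was searched, and a match is a run of letters, not a measured binding.

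Norad (2900097C17Rik) is known to bind Pumilio proteins, which recognise the motif TGTANATA. Its leading transcript held 11 of these motifs in 4915 bases, the highest count among the leading transcripts of the members. AC127249.1 followed with 5 by that measure. Over all isoforms Gm7292, a near-copy of Norad, came second: its isoform Gm7292-201 held 9 motifs and took 49.05% and 41.79% of the gene's TPM. An isoform of C230004F18Rik with 1.21% and 1.06% of its gene's TPM held 8. Some of the Norad windows are given below, with the motif in capitals, on the minus strand of mm10.
Norad, chr2:156392311-156392340: tagaagtcctgTGTATATAatatgaaaaag
Norad, chr2:156391815-156391844: agtaaacatgcTGTAAATAcctttttgtta
Norad, chr2:156391626-156391655: tggcttttcttTGTACATAgtgtatgtaaa
Norad, chr2:156390511-156390540: gctgtatatatTGTACATActggacaaacg
Of the 11 sites, 6 had T, 3 had C and 2 had A at the free base. Per length, Norad held 2.24 motifs per kilobase, and 3 members with short leading transcripts, of at most 428 bases, exceeded it. Among 12643 protein-coding genes at the same TPM minimum, 2 had more Pumilio motifs in their leading transcript than Norad. At least 1 Pumilio motif was found in 18.2% of the members and 27.1% of those protein-coding genes, and at least 1 miR-7 seed match in 16.8% and 24.9%. The leading transcripts of the protein-coding genes were longer, with a median of 2818 bases against 1228. Per length the order was the other way, with 0.145 Pumilio motifs per kilobase in the members and 0.120 in the protein-coding genes, and 0.352 and 0.0937 miR-7 seed matches. The 11 motifs of Norad and the 123 matches of C230004F18Rik are part of the members' values. Densities without these genes were not computed, so how much of the size of each difference rests on them is not given.

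**Figure D1:**
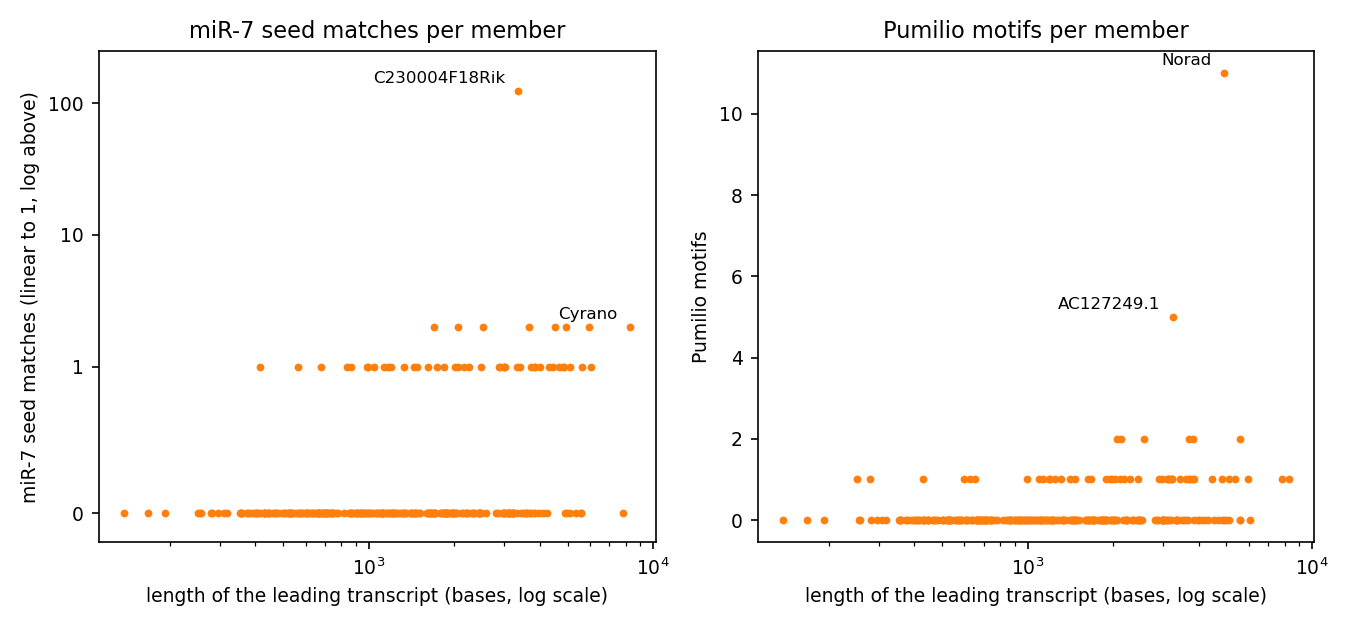
Each point is 1 of the 297 members, placed by the length of its leading transcript in bases on a log axis. The left panel counts miR-7 seed matches, on an axis linear to 1 and logarithmic above, where C230004F18Rik stands at 123 and every other member at 2 or fewer, and the right panel counts Pumilio motifs, where Norad stands at 11 and AC127249.1 at 5.

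MicroRNA precursors formed the largest group with a known product: 31 members contained 60 annotated microRNA genes on their own strand, 27 overlapping an exon and 33 within an intron. RefSeq mature sequences were available here for 44 of these genes in 25 members. Those of the miR-9, let-7 and miR-99/100 families are shown, with the seed in capitals, because several members hold a sequence or seed of each, and the miR-29 pair because both share a seed within 1 member. The miR-344 family, whose seeds A230057D06Rik and A330076H08Rik share, is not printed.
miR-9-5p, from Gm3764, C130071C03Rik and Mir9-3hg: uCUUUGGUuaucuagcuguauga
miR-9-3p, from Gm3764, C130071C03Rik and Mir9-3hg: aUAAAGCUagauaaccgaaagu
let-7a-5p, from 6720427I07Rik: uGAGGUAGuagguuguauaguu
let-7b-5p, from Lncppara: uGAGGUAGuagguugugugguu
let-7c-5p, from Lncppara and Mir99ahg: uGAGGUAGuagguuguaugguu
let-7d-5p, from 6720427I07Rik: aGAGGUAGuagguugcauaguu
let-7f-5p, from 6720427I07Rik: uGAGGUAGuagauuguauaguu
miR-100-5p, from 3110039I08Rik: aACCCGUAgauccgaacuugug
miR-99a-5p, from Mir99ahg: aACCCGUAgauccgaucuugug
miR-29b-3p, from A330023F24Rik: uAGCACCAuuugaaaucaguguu
miR-29c-3p, from A330023F24Rik: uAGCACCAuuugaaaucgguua

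All 3 Mir9 genes lay inside members. Gm3764, which holds Mir9-1 in an intron at chr3:88215598-88215686, was at 66.8 and 63.6 TPM. C130071C03Rik, with Mir9-2 in an exon at chr13:83738814-83738885, was at 22.03 and 23.3 TPM. Mir9-3hg was at 11.6 and 13.2 TPM. The order of the 3 loci was the same in both libraries and their values did not overlap. These are levels of the host transcripts, and mature microRNAs are too short to be read from these tables.

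All 3 Mir124a genes also lay in or against members. Mir124a-1hg, also known as Rncr3, was the highest microRNA host apart from C230004F18Rik, at 89.2 and 77.6 TPM, and holds Mir124a-1 in an exon. Mir124-2hg, with Mir124a-2, was at 10.5 and 11.6 TPM. Gm27032, which shares 3 of the 68 bases of Mir124a-3, was at 13.6 and 13.9 TPM. The first of these loci stood well above the other 2 in both libraries.

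The let-7 genes were spread over 4 members. Of 11 let-7 genes in RefSeq, 7 lay in 3110039I08Rik, 6720427I07Rik, Lncppara or Mir99ahg. 3110039I08Rik, which holds Mirlet7a-2 and also Mir100 and Mir125b-1, was at 27.1 and 25.7 TPM. For Mirlet7a-2 only the 3p sequence was available here. The hosts named above for let-7a-5p therefore leave out 3110039I08Rik and may be incomplete. Mir99ahg, with Mir99a and Mir125b-2, was at 9.25 and 8.62 TPM, and Lncppara at 11.8 and 9.81. 6720427I07Rik, with 3 let-7 genes in exons, was lower, at 2.69 and 2.44 TPM. A330023F24Rik, which holds Mir29b-2 and Mir29c, microRNAs that rise as the brain matures, was at 32.9 and 30.3 TPM. Its leading transcript is annotated as a retained intron. The values of these 5 hosts did not overlap each other.

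Among the other hosts, Rmst, Ftx, Gm26871 and Gm27000 held 1 or 2 annotated microRNA genes each, while A230057D06Rik and Mir670hg held more. Rmst, a regulator of neuronal fate with Mir135a-2 and Mir1251, was at 15.9 and 19.3 TPM. Ftx, an X inactivation region gene with Mir421 and Mir374b, was at 15.3 and 13.97. Gm26871, the host of Mir137 and Gm24155, was at 13.4 and 10.9, and Gm27000, with Mir1906-2 in its exon, at 27.1 and 23.9. Gm27000 is a copy of Meg3 on chromosome X, 99.9% identical over all 842 bases. Meg3 itself was at 824 and 780 TPM, so reads of the copy cannot be told from those of Meg3 with certainty. Over the 25 hosts with an available mature sequence the median of mean TPM was 8.93, from 1.49 to 65.2, beside a median of 2.89 over all members. C230004F18Rik and Mir124a-1hg, the latter at 89.2 and 77.6 TPM, are not among these 25 hosts. Mir9-3hg, Mir124-2hg, Gm27032, Lncppara, Mir99ahg and 6720427I07Rik are named to complete these families, a choice made after their values were seen.

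Small nucleolar RNAs guide modification of ribosomal RNA, and scaRNAs do so for spliceosomal RNAs. In all, 18 members held 31 snoRNA and 3 scaRNA genes, 27 of them overlapping an exon of at least 1 transcript. Snhg12, with 5 snoRNA records, was the highest at 26.2 and 23.1 TPM. Snhg8 followed at 23.2 and 20.0 TPM, and Snhg20, a scaRNA host, at 13.2 and 15.9. Snhg6 was at 11.5 and 12.6 TPM, Snhg1 with 8 snoRNAs at 10.01 and 9.74, and Snhg5 at 10.1 and 9.59. 1110038B12Rik was at 10.4 and 8.53 TPM, AA465934 at 9.99 and 8.80, AC121821.1 at 9.83 and 7.37 and Gm26945 at 8.77 and 8.39. From Snhg1 to Gm26945 the values overlapped and their order differed between the libraries. Where an exon overlaps the small RNA, reads of the small RNA and of the host cannot be separated in the gene table.

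The levels of the whole group were very uneven. The top 3 genes, Gm26917, Rmrp and Gm42418, held 85.2% and 85.4% of the summed TPM of the members. The members held 2.03% and 2.10% of all gene TPM, and 0.301% and 0.307% without these genes. Only 6 members had a mean of 100 TPM or more, 45 lay from 10 to 100, 47 from 5 to 10, 94 from 2 to 5 and 105 below 2. The median was 2.95 TPM in replicate 1 and 2.84 in replicate 2, while protein-coding genes selected with the same minimum had medians of 14.5 and 14.8. In tissue RNA, fewer cells expressing a gene and less RNA per cell cannot be told apart.

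**Figure D2:**
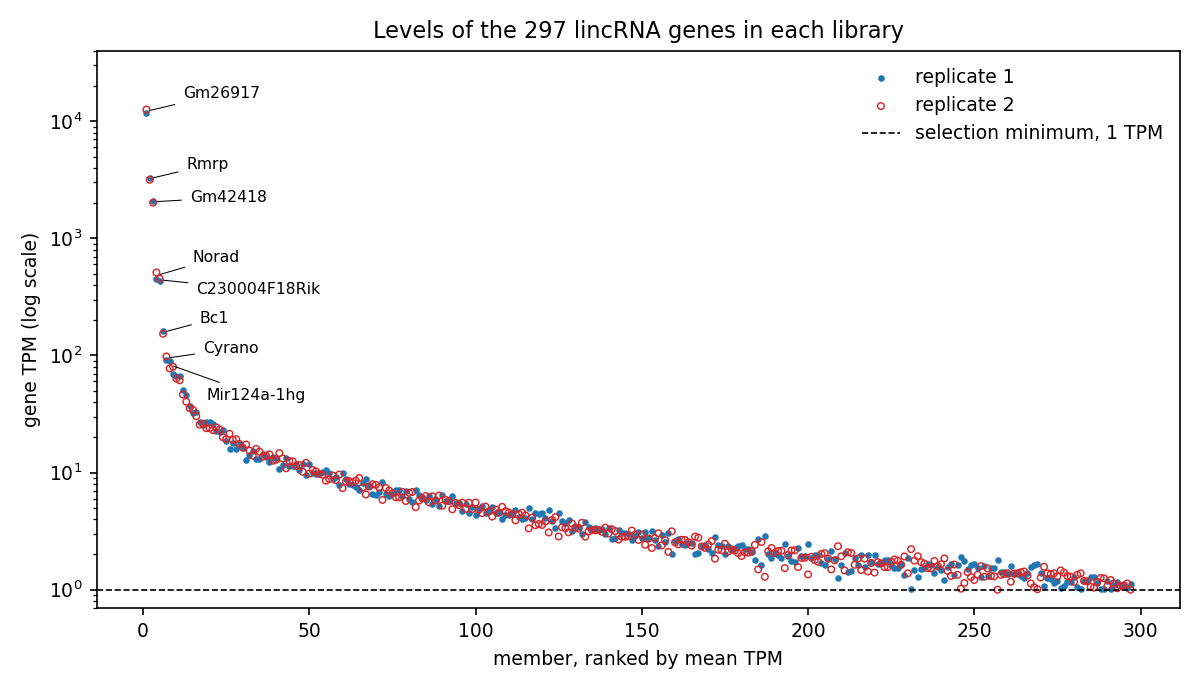
Gene TPM on a log axis for the 297 members, ranked by their mean, with replicate 1 as filled and replicate 2 as open points. Gm26917, Rmrp and Gm42418 lie at 2017 TPM or higher in both libraries and the bulk lies between the selection minimum of 1 TPM (dashed line) and 10 TPM.

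Gm26917 was at 11753 and 12589 TPM and took 2.29% and 2.39% of all expected counts over genes. It spans chr17:39843013-39846341 on the plus strand. Gm42418 follows at chr17:39846958-39848788 on the same strand, at 2084 and 2017 TPM. RefSeq lists Gm42418 as a synonym of Rn18s-rs5, a pseudogene of ribosomal RNA at chr17:39846354-39848202. On the opposite strand the annotation has CT010467.1, at chr17:39846353-39848827, with an rRNA transcript that matched Gm42418 at 100% over 1244 of its 1849 bases. The 2 genes overlap in position, so this match of opposite strands follows from the overlap and is no separate evidence. CT010467.1 held 57 and 61 counts, at 3.61 and 4.25 TPM, far below its neighbour on the plus strand. How much of the pair's level is ribosomal RNA was not tested.

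Rmrp is the RNA of RNase MRP, which cuts precursor ribosomal RNA, and is made by RNA polymerase III. The lincRNA record selected here, chr4:43492783-43493063 on the minus strand, was at 3303 and 3166 TPM. A second record of type ribozyme lies in the same place, is identical to 96.4% of the lincRNA record, and was at 2183 and 2056 TPM. The 2 records share reads, and the deposited posterior SD was 519 and 423 counts on 15088 and 13292. Both records were listed at 0 in the second quantification.

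Bc1 is a neuronal RNA of rodents, also made by RNA polymerase III, that is carried into dendrites and represses translation there. It was at 162 and 153 TPM, from 280 and 244 counts. Its sequence on mm10, chr7:144914470-144914637 on the plus strand, is given whole because it is the shortest of the 15 highest members, at 168 bases. The capitals mark its longest run of A, 23 bases, from base 77 to 99.
Bc1: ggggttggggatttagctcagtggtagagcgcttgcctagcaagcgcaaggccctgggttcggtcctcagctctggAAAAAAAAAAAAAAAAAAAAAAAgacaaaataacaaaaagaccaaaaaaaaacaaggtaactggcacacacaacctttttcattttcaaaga
Stretches of it match transcripts of Cnot3 and Lrrc17 at 96.9% over 96 bases and 97.8% over 91 bases. Bc1 too was listed at 0 in the second quantification.

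Among the members whose sites are shown above, Norad was at 451 and 511 TPM. Gm7292, a sequence on chromosome 6 that is 99.1% identical to Norad over 1001 aligned bases, was at 69.4 and 80.1 TPM. Its 1 Pumilio window in the leading transcript is the same as the first Norad window above, letter for letter. Reads of the 2 loci are hard to tell apart, so the level of Gm7292 is uncertain. C230004F18Rik was at 432 and 453 TPM. Cdr1, a protein-coding gene inside it on the opposite strand, was at 0 and 0.03 TPM. These tables count linear gene models, so circular and linear RNA of the Cdr1as locus are not separated and no value for the circle is given. Cyrano was at 91.4 and 98.2 TPM. The TPM of all 3 was higher in replicate 2, but the direction turns with the scaling: the log2 ratios of Norad, C230004F18Rik and Cyrano were 0.05, 0.02 and 0.06 after TMM scaling and -0.13, -0.16 and -0.12 with spike-in scaling.

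The other members of the 15 highest were less alike in what is known of them. Gm48623 was at 66.5 and 61.4 TPM and Gm10419 at 37.3 and 35.6. Pantr1, which starts next to the neuronal transcription factor gene Pou3f3, was at 50.4 and 46.4 TPM. Lncpint, a p53-responsive RNA, was at 46.1 and 40.3, and 1500004A13Rik at 32.5 and 34.3. Pvt1, the neighbour of Myc, was lower at 13.04 and 15.1 TPM.

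A list of 41 noncoding RNAs with known functions, not all annotated as lincRNAs, was checked against the members. Of these, 15 were members, 9 were lincRNA genes under the minimum, 16 fell outside the rule by their transcript types and 1, Pnky, matched no gene row. The members beyond those already named were Chaserr (1810026B05Rik), at 12.4 and 14.3 TPM, Dleu2 at 8.76 and 6.5, Epb41l4aos at 6.46 and 7.86, Jpx at 4.35 and 4.56, and Crnde. Crnde was the lowest at 1.29 and 1.04. Xist, the X inactivation RNA of female cells, was at 0.05 TPM in both of these male libraries. H19 was at 0.14 and 0 TPM and Hotair was listed at 0 in both. Bvht, at 1.14 and 0.44 TPM, passed the minimum in replicate 1 only.

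The threshold ran through a continuous range. Ranked by the lower of their 2 values, the lowest members were Gm38413 at 1.81 and 1.00 TPM, Gm49032 at 1.11 and 1.00, 2010015M23Rik at 1.01 and 1.26, E330013P04Rik at 1.66 and 1.01, and Gm26532 at 1.01 and 1.25. Ranked likewise, just outside lay E230029C05Rik at 1.33 and 0.99 TPM, Gm14168 at 0.99 and 1.18, Gm20342 at 1.09 and 0.99, Gm45869 at 0.99 and 1.05, and Gdap10 at 1.15 and 0.98. Of the 5749 lincRNA genes below it, 30 fell under it in replicate 1 only, 31 in replicate 2 only and 5688 in both, and 3947 had a count of 0 in both. A count of 0 allowed up to 0.0868 and 0.0927 CPM (counts scaled to library size, not corrected for length), by 3 counts and for counting error only.

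In structure, the members had leading transcripts with a median of 1228 bases and 2 exons, and their genes spanned a median of 10222 bases. LincRNA genes under the minimum had medians of 813 bases and 3 exons and spanned 6498 bases. For the 3947 of them with a count of 0 in both libraries, the leading transcript was the first by identifier, not by level. A single exon in every transcript was found in 55 members, 18.5%, and in 4.57% of the genes under the minimum. Only 38.4% of the members had 1 annotated transcript, against 73.8% under the minimum. Median GC content was 47.3% and 46.1%, and 50.6% in protein-coding genes. In all, 8 members, 2.69%, lay on chromosome X. Gene bodies of 16 members, 5.39%, overlapped a protein-coding gene on the same strand, and those of 41, 13.8%, on the opposite strand. Under the minimum these shares were 1.67% and 7.06%. An exon of 72 members overlapped an exon on the opposite strand and an exon of 57 overlapped another gene on the same strand, while 184 had neither. Whether counting used strand is not stated for each table, so levels of overlapping genes are uncertain.

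Head-to-head neighbours were common. A protein-coding gene began on the opposite strand within 5 kb upstream of 60 members, 20.2%, and of 6.59% of the lincRNA genes under the minimum. Within 1 kb these were 15.2% and 3.98%. Since the members were selected by level, this is a description of the genes above and below the minimum. In 53 of the 60 pairs the partner was higher than the member in both libraries, with median means of 27.9 TPM for the partners and 2.23 for these members. The 7 other pairs, named after their values were seen, were Pantr1, 1500004A13Rik, AI480526, AA465934, Gm34418, Gm12063 and Crnde. Pantr1 exceeded Pou3f3, at 27.6 and 26.7 TPM, and 1500004A13Rik exceeded Gon4l, at 17.6 and 17.5. AI480526, at 26.9 and 23.9 TPM, exceeded Setd1b, a histone methyltransferase gene at 14.7 and 14.6.

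In the other pairs among the 10 highest members, apart from AA465934, the partner was higher. 5031425E22Rik was at 9.94 and 10.5 TPM beside the chromatin regulator gene Kmt2e at 33.1 and 34.1. Snhg1 stood beside Slc3a2, an amino acid transporter subunit gene at 60.3 and 61.5 TPM. 4930570G19Rik was at 8.19 and 7.47 TPM beside the neuronal adhesion gene Negr1 at 44.6 and 50.7. Gm5113, 4632404H12Rik and 9030407P20Rik, at means of 6.07, 5.69 and 4.67 TPM, were below Zfp146, Ube2q1 and Mosmo, at 20.9, 38.6 and 33.6. The partner of AA465934, Slfn14, was listed at 0 and lay near the edge of the window, at 4973 bases. Over the 60 pairs Spearman's rho between the levels of member and partner was 0.01, a description across genes that share 2 libraries.

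**Figure D3:**
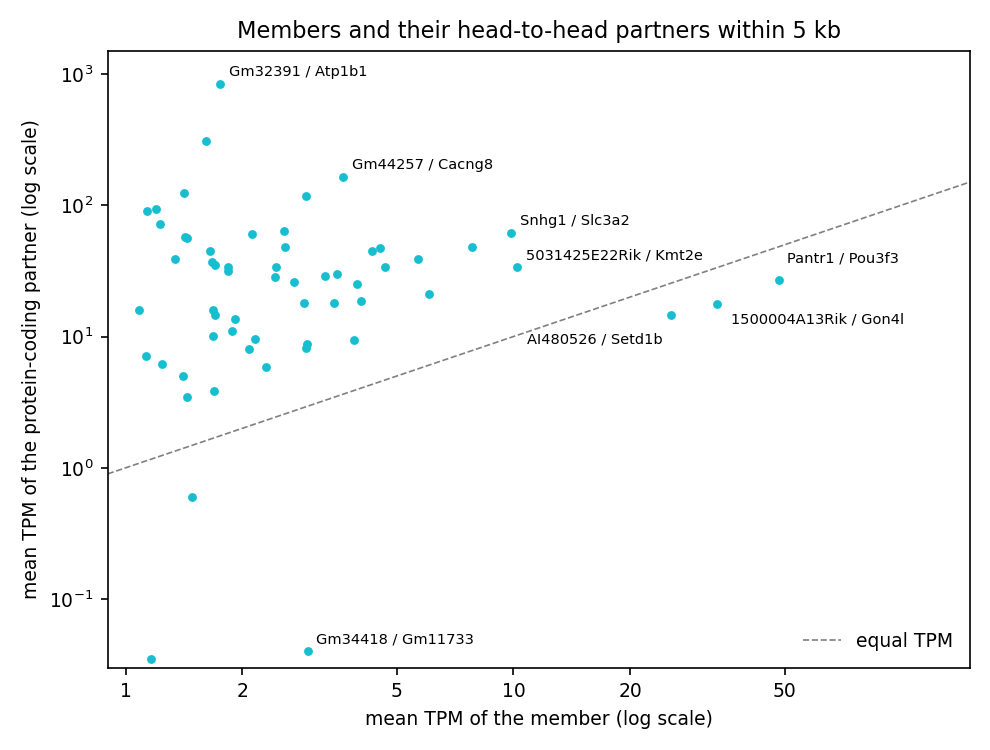
Mean TPM of 59 members on the x axis and of their head-to-head protein-coding partners within 5 kb on the y axis, both logarithmic, with the line of equal TPM. The pair of AA465934 and Slfn14 is not drawn because Slfn14 is at 0. Pantr1, 1500004A13Rik and AI480526 lie below the line among the highest members, and most partners lie above it.

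The 2 libraries gave close values for the members with higher counts. Over all members the median CV of TPM (SD as a percent of the mean) was 8.38%, beside 4.80% for protein-coding genes at the minimum. It was over 20% in 48 members. At a mean of at least 5 CPM, 99 members could be compared, and 0 of them were 2-fold or more apart after TMM scaling in edgeR, beside 0.140% of all 11417 genes at that level. No test was run, since there is only 1 group. The median absolute log2 ratio was 0.092 for the members and 0.061 for all genes. At 5 to 20 CPM the medians were 0.103 for 70 members and 0.094 for all genes. At 20 CPM or more they were 0.063 for 29 members and 0.049 for all genes. Of the 99, 68 were lower and 31 higher in replicate 2, with a median log2 ratio of -0.045 beside 0.007 over all genes. Spike-in scaling shifts every log2 ratio by -0.18 against TMM, so directions of this size depend on the scaling.

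The largest ratios were modest. AC121821.1 had 260 and 176 counts, a log2 ratio of -0.49 with a 95% exact interval from -0.77 to -0.21 for counting error only. AC171111.1 was at -0.40, 9030407P20Rik at -0.38, and Gm26871 and Dleu2, both microRNA hosts, at -0.37. In the other direction 1810058I24Rik, which was at 12.8 and 17.3 TPM, had a log2 ratio of 0.32 with an interval from 0.09 to 0.55. Gm45768 was at 0.31, Dubr at 0.30, Gm45495 at 0.24 and Gm43597 at 0.21. With spike-in scaling these last 4 fell between 0.03 and 0.13. The tissue pieces differed in content: 8 choroid plexus markers summed to 36.6 and 699 TPM, led by Ttr at 29.9 and 672, and the part of this in the ratios of the members was not tested. The 10 hippocampal markers were all present, at sums of 2513 and 2528 TPM.

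**Figure D4:**
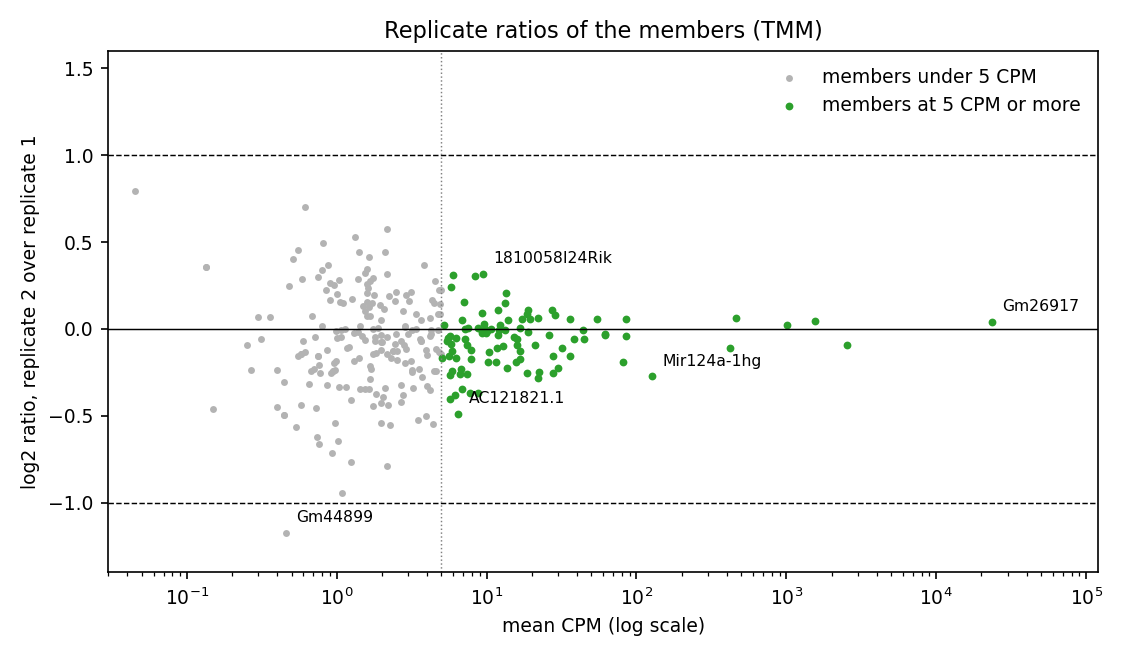
The log2 ratio of replicate 2 over replicate 1 after TMM scaling on the y axis, against mean CPM on a log x axis, for the 297 members. Green points are the 99 members at 5 CPM or more, all within the dashed 2-fold lines, and the member past a line is Gm44899, with 22 and 9 counts.

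The authors also deposited a second quantification of each library, and this table gave other levels for part of the members. Over all 14280 genes at the minimum, its TPM was higher by a median log2 ratio of 0.70, and by 0.77 over the members. In plain TPM 83 members, 27.9%, were at least 2-fold higher and 11, 3.70%, at least 2-fold lower, beside 14.9% and 3.59% of all genes. Relative to the median shift, 19 members, 6.40%, were at least 2-fold higher and 21, 7.07%, at least 2-fold lower, beside 1.07% and 4.30% of all genes. The other 257 stayed within 2-fold of the shift. One side of this ratio is the level that selected the members, so the shares are a description only.

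In all, 8 members were listed at 0 in both libraries of the second table: Rmrp, Bc1, Gm10076, Gm49207, Gm45846, Gm31294, Gm45353 and Gm48242. By the same measure, 19 of 12643 protein-coding genes at the minimum were at 0. The leading transcripts of these members were short: of the 9 members with at most 300 bases 6 were at 0, of 31 with over 300 and up to 500 bases 2, and of 257 longer ones 0. The protein-coding genes had longer leading transcripts, with a median of 2818 bases. Shares at 0 over all genes of these lengths were not computed, so this is not shown to be particular to the members. Gm10076 is a 99.5% copy of the ribosomal protein gene Rpl41, and Gm49207 a 99.6% copy of Ahsa1, a gene for a cochaperone of Hsp90. Copies and short length occur together in some of these genes, and their parts were not tested. The lowest members above 0 were Gm34418, at a log2 ratio of -2.62 relative to the shift, Gm9989, Gm44899, Gm5914 and 1700026F02Rik.

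At the other end, AC121821.1 was at 9.83 and 7.37 TPM in the gene table and at 399 and 363 in the second, 27.2-fold above the shift. Its exons overlap the snoRNA gene Snora74a and Mir1949. In the gene table Snora74a has its own row, at 935 and 870 TPM. How much of the second level of AC121821.1 comes from reads of the snoRNA was not tested. Gm20186 was 7.04-fold above the shift, Gm43305 5.61-fold, A230006K03Rik 4.95-fold and Gm42031 4.94-fold. Of the 19 members at least 2-fold above, 6 had an exon overlapping another gene on the same strand and 12 had no exon overlap on either strand. Over all 297 members these were 57 and 184, so the 12 are close to the share of all members. Among members with several transcripts, the leading transcript differed between the 2 tables in 59 of 182, or 32.4%, beside 23.7% of all genes with several transcripts. For C230004F18Rik both tables named the same transcript, at 87.5% and 88.5% of the gene's TPM in the first.

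**Figure D5:**
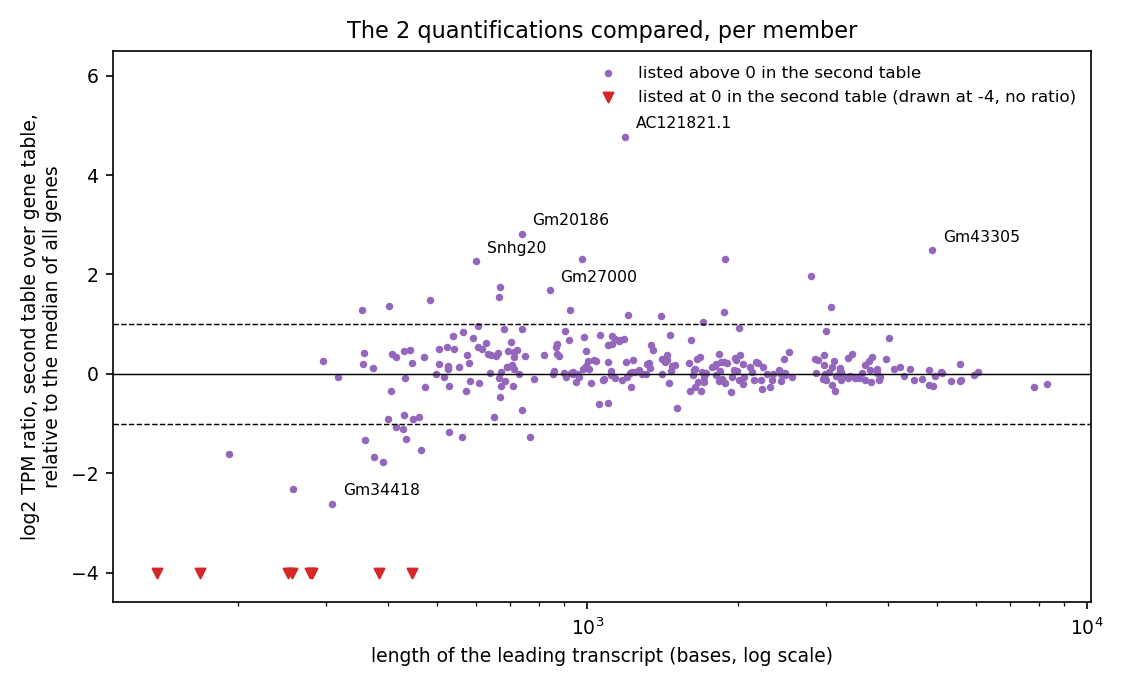
The log2 ratio of TPM in the second table over the gene table, relative to the median of all genes, on the y axis, against the length of the leading transcript in bases on a log x axis. Red triangles are the 8 members at 0 in the second table, all with leading transcripts of at most 500 bases, and AC121821.1 stands highest at 4.77.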

How the data were processed

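The authors deposited, for each library, a gene table and a transcript table with expected counts, TPM and, per the file headers, the posterior SD of each count (used as a score of certainty). The deposited first transcript table also gives each isoform's percent of its gene. A second deposited transcript table gives estimated counts and TPM for the same library. The deposited file notes name mm10 and annotation M21, while which tool made each table is not given in the sources used here. Expected counts over genes summed to 34563482 and 32370292. Gene types were read from the transcript names, and 86 gene rows without a type could not be members. Replicate ratios used edgeR 4.0.16 in R 4.3.3 on rounded counts, with TMM scaling, a prior count of 0.5 and a mean of at least 5 CPM, and the step was tested on simulated data. Near-identical rows (at least 95% identity over 50% of the leading transcript) were found with blastn 2.17.0, and other steps used Python 3.11.15 with pandas 2.3.3. Exact intervals are Clopper-Pearson, at 95%, and they and the limits from 3 counts cover counting error only.

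The members and lists were chosen with earlier results of these data known. The genes named are the 15 highest members, the 5 nearest the minimum on each side, up to 10 microRNA hosts, snoRNA hosts, genes of known function and head-to-head pairs by level, and the 5 largest ratios in each direction between replicates and between quantifications. Other names are said to be chosen after their values were seen. Alternatives covered the TPM minimum, the table used, the scaling, the filter on low counts, the window for neighbours and each replicate left out.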

Additional observations from a re-analysis of the deposited data

How the results depend on the processing

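No paired analysis was possible because the series has 1 group. The number of members, 297, was 442 at a minimum of 0.5 TPM, 183 at 2 TPM and 94 at 5 TPM. It was 621 with the second table and 481 once TPM was rescaled to the sum of nuclear protein-coding genes. With 1 replicate left out it was 327 to 328. Without the 20 members that have a near-identical gene row it was 277, an alternative chosen after seeing the data. The members' median TPM, 2.89, was 4.95 with the second table, 6.96 with rescaled TPM and 2.84 to 2.95 with 1 replicate left out. Their share of TPM, 2.06%, was 0.837% without the highest member, Gm26917, 2.89% with the second table, 2.03% to 2.10% with 1 replicate left out and 0.304% without Gm26917, Gm42418 and Rmrp, an alternative chosen after seeing the data. The count of members 2-fold apart between replicates, 0, was 1 without a filter on low counts (Gm44899, 22 and 9 counts). Their median replicate log2 ratio, -0.045, was -0.223 with spike-in scaling, which puts the median of all genes at -0.171. The 94 members 2-fold apart between quantifications became 40 by counts and 40 relative to the median of all genes, the latter chosen after seeing the data, and 101 to 104 with 1 replicate left out. Head-to-head pairs, 60, were 45 within 1 kb and 71 within 10 kb. Under 100 counts in a library, the level of a member is loosely fixed, and 134 members had at least 100 in both.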
